A study of Mus musculus with 7 samples.

Results

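The genes described here are 34 interferon-stimulated effector genes, the genes through which interferon restricts viruses and cells, outside the families of interferon regulatory factors, oligoadenylate synthetases, nucleic acid sensors and interferon-inducible GTPases. They were taken by name from a table of 23038 mouse genes. The table carries 32 of the names, and 2 genes stand in it under older names and were found by NCBI Gene identifier: Ifi27 (52668) as Ifi27l1 and Phf11d (219132) as D14Ertd668e. RNA was measured in haematopoietic stem cells (HSCs) of C57BL/6 mice, sorted from adult hindlimb bone marrow as Lineage- Sca1+ cKit+ CD150+ CD48- cells, with 150 cells and 1 Smart-seq2 library per animal. The mutant group held 4 libraries from Mx1-cre; Mettl3fl/fl mice and the control group 3 libraries from Cre-negative littermates. Mice of both groups received 5 injections of 10 µg pIpC and were killed 10 days after the last injection. pIpC is a double-stranded RNA analogue that raises interferon, and interferon drives Cre from the Mx1 promoter. The inducer of the deletion is therefore also an inducer of the genes described here, and every animal in the study had received it.

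In type I interferon signalling, the receptor pair IFNAR1 and IFNAR2 activates the kinases JAK1 and TYK2, which phosphorylate STAT transcription factors. Together with IRF9 these bind the interferon-stimulated response element (ISRE), a DNA motif in the promoters of many effector genes. The effectors bind viral RNA, modify proteins with the ubiquitin-like ISG15, hinder fusion of viral and cell membranes or deplete nucleotides. Stem cells are known to keep some of these genes on without added interferon, the Ifitm genes among them, and interferon is known to drive quiescent HSCs into the cell cycle.

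The promoters below show where letters of the ISRE lie in members that were higher and in members that were lower in mutants. Those with a match were chosen by the mutant over control ratio itself. They are the 3 highest and the 2 lowest among matched members with at least 5 RPKM in 1 group. Isg15 and Rsad2 reached that level in mutants only, and Ifit3 and Trim21 fell short of it. Also shown are 2 members with a divergent neighbour and no match. Whether the matched letters act in these cells was not tested. Each is the RefSeq window on GRCm38.p6 (the submitters' notes name mm10, which is GRCm38), from 250 bases before to 50 bases after the annotated start, 5′ to 3′ along the gene. Capitals mark the core of the ISRE, GAAA followed after any 2 bases by a further GAAA, or the same letters on the other strand (TTTC, 2 bases, TTTC). Overlapping matches run together.
Isg15 (chr4:156200769-156201068, minus strand): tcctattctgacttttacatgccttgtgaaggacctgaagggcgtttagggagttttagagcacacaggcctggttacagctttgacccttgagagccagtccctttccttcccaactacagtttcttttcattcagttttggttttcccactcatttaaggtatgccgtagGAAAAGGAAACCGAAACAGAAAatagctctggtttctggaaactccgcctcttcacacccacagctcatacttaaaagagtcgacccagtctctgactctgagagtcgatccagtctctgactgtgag
Ifit1 (chr19:34640639-34640938, plus strand): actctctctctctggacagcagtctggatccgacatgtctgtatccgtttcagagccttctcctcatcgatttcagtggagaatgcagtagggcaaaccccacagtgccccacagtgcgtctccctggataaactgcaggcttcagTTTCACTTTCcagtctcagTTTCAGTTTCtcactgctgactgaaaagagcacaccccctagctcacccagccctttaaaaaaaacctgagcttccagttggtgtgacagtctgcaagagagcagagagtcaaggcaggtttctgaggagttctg
Rsad2 (chr12:26456403-26456702, minus strand): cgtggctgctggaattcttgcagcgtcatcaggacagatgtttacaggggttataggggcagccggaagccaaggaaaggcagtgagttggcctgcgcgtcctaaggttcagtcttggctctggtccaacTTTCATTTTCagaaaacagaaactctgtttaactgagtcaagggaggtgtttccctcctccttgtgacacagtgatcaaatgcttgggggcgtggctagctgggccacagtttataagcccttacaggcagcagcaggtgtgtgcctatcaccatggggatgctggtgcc
Ifitm2 (chr7:140955912-140956211, minus strand): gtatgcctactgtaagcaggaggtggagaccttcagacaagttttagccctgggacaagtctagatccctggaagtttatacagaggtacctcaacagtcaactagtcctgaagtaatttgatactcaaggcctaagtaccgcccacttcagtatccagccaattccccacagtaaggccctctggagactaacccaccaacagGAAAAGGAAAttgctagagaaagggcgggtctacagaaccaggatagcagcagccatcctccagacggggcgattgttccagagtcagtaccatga
Trim30a (chr7:104465144-104465443, minus strand): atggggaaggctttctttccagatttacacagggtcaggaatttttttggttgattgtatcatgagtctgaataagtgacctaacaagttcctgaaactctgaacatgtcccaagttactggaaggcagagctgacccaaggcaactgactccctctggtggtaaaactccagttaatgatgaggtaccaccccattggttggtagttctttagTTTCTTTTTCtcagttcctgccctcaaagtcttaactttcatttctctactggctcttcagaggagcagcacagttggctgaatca
Dtx3l (chr16:35938978-35939277, minus strand): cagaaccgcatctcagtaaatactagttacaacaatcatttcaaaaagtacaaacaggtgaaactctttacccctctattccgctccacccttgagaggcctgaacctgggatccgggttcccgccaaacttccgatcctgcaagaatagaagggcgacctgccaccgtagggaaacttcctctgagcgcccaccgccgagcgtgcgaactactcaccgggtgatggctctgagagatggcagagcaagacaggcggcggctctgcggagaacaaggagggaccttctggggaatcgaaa
Cmpk2 (chr12:26468965-26469264, plus strand): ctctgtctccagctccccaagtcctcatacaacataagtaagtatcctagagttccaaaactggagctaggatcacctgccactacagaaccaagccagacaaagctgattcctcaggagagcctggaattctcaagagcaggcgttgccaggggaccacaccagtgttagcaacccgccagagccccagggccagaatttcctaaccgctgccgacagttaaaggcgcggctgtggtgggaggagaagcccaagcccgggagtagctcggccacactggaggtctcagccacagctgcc
In Isg15 there are 3 overlapping matches, the first beginning 78 bases before the start. Ifit1 has 2 matches, beginning 104 and 85 bases before the start. Rsad2 has 1, beginning 120 bases before it, Ifitm2 1 at 46 bases and Trim30a 1 at 36 bases.

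The values are RPKM (reads scaled to gene length and library size), 1 value per gene for each group, so that levels of different genes can be set side by side per length. No value for a single animal is given, so there is no SD, no test and no replicate check of any difference below. "Higher" and "lower" compare the mutant value with the control value. Ratios are given as log2((mutant + 1) / (control + 1)), which understates the change of genes at low levels, and folds are ratios of the deposited values. Mettl3, the targeted gene and catalytic subunit of the m6A methyltransferase, was at 9.60 RPKM in mutants and 49.8 RPKM in controls, 19.3% of the control level. Genes without reads stand in the table at a small offset, and 14539 genes lay above it in at least 1 group. If that offset is 1 read, the library sizes averaged 28.7 megareads in mutants and 24.1 megareads in controls (harmonic means). All 34 effectors lay above the offset in both groups.

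The effectors did not move as a block. Of the 34, 19 were higher in mutants and 15 lower, with a median log2 ratio of 0.06. Among all genes with reads 52.6% were higher and 47.4% lower, and the median was 0.02. The split was 17 higher and 17 lower after the mutant values were centred on the median ratio of expressed genes, and 20 higher and 14 lower after both columns were brought to the same sum. None of the 34 was 2-fold apart on the pseudocount scale in either direction, against 3.67% of all genes higher and 3.47% lower. At 1.5-fold, 7 members (20.6%) were higher, against 13.0% of all genes, and 1 member (2.94%) was lower, against 10.4% of all genes. The 7 higher members were Isg15, Ifit3, Dtx3l, Ifit2, Ifit1, Rtp4 and Parp9, and the lower one was Samd9l. Summed over the effectors, the level was 3462 RPKM in mutants and 3722 RPKM in controls, and the 3 Ifitm genes made up 62.9% of that sum in mutants and 67.3% in controls.

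**Figure D1:**
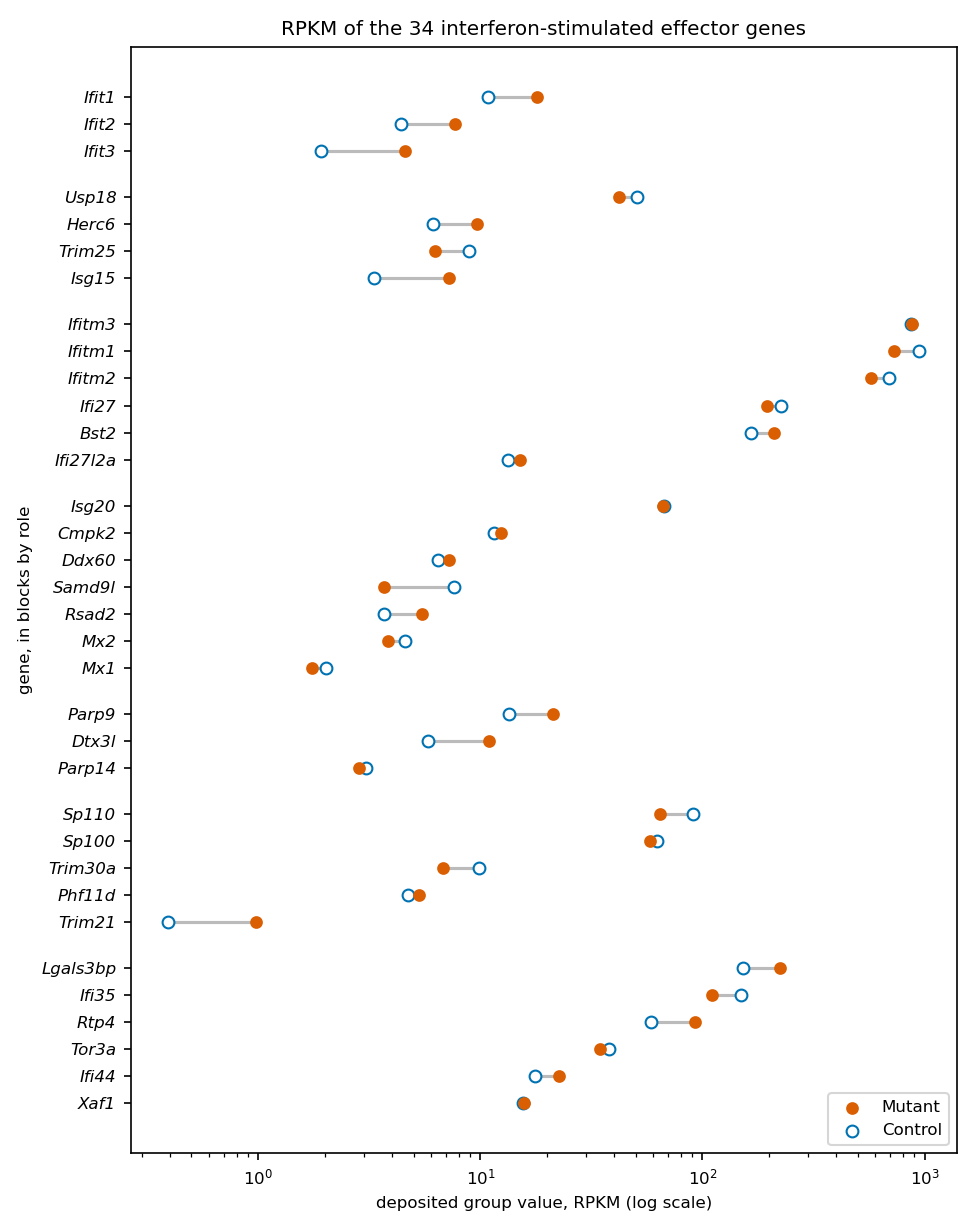
Deposited RPKM (log scale) of the 34 effectors in mutants (filled) and controls (open), 1 value per group, in blocks by role and, within a block, by level. The Ifit genes, Isg15, Parp9 and Dtx3l are to the right in mutants, Samd9l is to the left, and the Ifitm genes lie at the top of the scale in both groups.

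The IFIT proteins bind viral RNA with foreign 5′ ends and block its translation, and their 3 genes were all higher in mutants. Ifit1 was at 18.0 RPKM in mutants and 10.8 RPKM in controls, 1.66-fold higher. Ifit2 was at 7.69 RPKM in mutants and 4.38 RPKM in controls, 1.76-fold higher. Ifit3 was at 4.57 RPKM in mutants and 1.92 RPKM in controls, 2.38-fold higher. The 3 log2 ratios lay between 0.68 and 0.93, and the order of levels, Ifit1 above Ifit2 above Ifit3, was the same in both groups. Ifit3b, a close copy of Ifit3 that the table lists as I830012O16Rik, was at 0.557 RPKM in mutants and 0.223 RPKM in controls; no source used here says how reads common to both were assigned.

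The ISG15 system was divided. Isg15, the ubiquitin-like modifier, was at 7.25 RPKM in mutants and 3.31 RPKM in controls, 2.19-fold higher and the member with the highest log2 ratio (0.94). Herc6, the main ISG15 ligase of mice, was at 9.63 RPKM in mutants and 6.14 RPKM in controls, 1.57-fold higher. Usp18, which removes ISG15 from proteins and dampens signalling at the interferon receptor, went the other way, at 41.9 RPKM in mutants and 50.5 RPKM in controls. Trim25, a ubiquitin ligase that acts on the sensor RIG-I and can also conjugate ISG15, was at 6.22 RPKM in mutants and 8.91 RPKM in controls, a log2 ratio of -0.46. In level, Usp18 stood several-fold above Isg15 in both groups.

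Small membrane proteins held the highest levels. Ifitm3, which lodges in endosomes and hinders viral fusion, was at 874 RPKM in mutants and 866 RPKM in controls, 1.01-fold, a difference whose sign turned after centring on the median ratio. Ifitm1, its relative at the cell surface, was at 730 RPKM in mutants and 948 RPKM in controls, and Ifitm2 was at 575 RPKM in mutants and 692 RPKM in controls. Ifitm1 was the highest of the 34 in controls and Ifitm3 the highest in mutants, and all 3 lay above the 99.7th percentile of the table. Ifi27 was at 194 RPKM in mutants and 226 RPKM in controls, and Ifi27l2a at 15.1 RPKM in mutants and 13.3 RPKM in controls. These RefSeq gene models overlap on opposite strands, and Smart-seq2 does not keep the strand, so their reads may not have been told apart. Bst2, or tetherin, which holds budding virus on the cell surface, was at 209 RPKM in mutants and 166 RPKM in controls, 1.26-fold higher. No gene of this group passed 1.5-fold.

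Among the dynamin-like Mx proteins and the effectors that act on RNA or nucleotides, 3 were higher and 4 lower. Mx1, whose promoter drives Cre in the mutants, was at 1.74 RPKM in mutants and 2.02 RPKM in controls. Mx2 was at 3.84 RPKM in mutants and 4.58 RPKM in controls. C57BL/6 mice carry a defective Mx1 allele, so its transcript reports on interferon signalling and not on antiviral function. Samd9l, a regulator of endosomes and translation that restrains growth of blood cells, was the member with the lowest log2 ratio (-0.89), at 3.68 RPKM in mutants and 7.64 RPKM in controls, 2.08-fold lower. Rsad2, or viperin, which makes a chain-terminating nucleotide, was at 5.44 RPKM in mutants and 3.69 RPKM in controls, 1.48-fold higher. Cmpk2, the mitochondrial nucleotide kinase encoded beside it, was at 12.4 RPKM in mutants and 11.5 RPKM in controls. Ddx60, a helicase linked to RNA sensing, was at 7.19 RPKM in mutants and 6.41 RPKM in controls. The exonuclease gene Isg20 was at 66.6 RPKM in mutants and 67.1 RPKM in controls, a difference whose sign turned with both columns at the same sum.

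PARP9 and DTX3L form a complex of a mono-ADP-ribosyltransferase and a ubiquitin ligase, and their genes were higher together. Parp9 was at 21.2 RPKM in mutants and 13.5 RPKM in controls, 1.57-fold higher, and Dtx3l at 11.0 RPKM in mutants and 5.80 RPKM in controls, 1.89-fold higher. Parp14, a further ADP-ribosyltransferase of the same locus, was at 2.83 RPKM in mutants and 3.05 RPKM in controls. Zc3hav1, an inactive PARP that binds viral RNA and a paralog outside the 34, was at 17.3 RPKM in mutants and 8.97 RPKM in controls.

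Of the 5 genes for TRIM ligases, nuclear-body and chromatin-associated proteins, 2 were higher and 3 lower. Sp110 was at 64.3 RPKM in mutants and 90.3 RPKM in controls, and Sp100, a core protein of PML nuclear bodies, at 57.9 RPKM in mutants and 62.3 RPKM in controls. Trim30a, which restrains NF-κB signalling in mice, was at 6.82 RPKM in mutants and 9.82 RPKM in controls. Phf11d was at 5.29 RPKM in mutants and 4.73 RPKM in controls. Trim21, an intracellular antibody receptor, had the lowest level of the 34, at 0.974 RPKM in mutants and 0.394 RPKM in controls. Its 2.47-fold difference was the largest fold among the effectors, and its log2 ratio was 0.50. Phf11d, Sp100 and Trim30a belong to families of close copies, and no source used here says how reads that match several copies were handled.

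Of the other 6 effectors, 4 were higher and 2 lower. Rtp4, a Golgi chaperone of receptors, was at 92.9 RPKM in mutants and 58.6 RPKM in controls, 1.59-fold higher. Lgals3bp, a secreted galectin-binding glycoprotein, was at 223 RPKM in mutants and 152 RPKM in controls, 1.46-fold higher. Ifi44 was at 22.6 RPKM in mutants and 17.6 RPKM in controls. Xaf1, a partner of the apoptosis inhibitor XIAP, was at 15.7 RPKM in mutants and 15.5 RPKM in controls, and the sign of this difference turned after centring on the median ratio. Ifi35 was at 110 RPKM in mutants and 149 RPKM in controls, and Tor3a, an ATPase of the endoplasmic reticulum, at 34.4 RPKM in mutants and 38.1 RPKM in controls.

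The effectors were also set beside all genes of their own level. The 7 effectors over 100 RPKM had a median log2 ratio of -0.22, with 3 higher and 4 lower (Ifitm3 among the 3), none past 1.5-fold. All genes over 100 RPKM had a median of -0.03, and 4.53% were 1.5-fold higher and 4.69% lower. The 12 effectors between 10 and 100 RPKM had a median of 0.06, with 3 at least 1.5-fold higher and none lower. For all genes of that level the median was 0.05, and 13.8% were 1.5-fold higher and 8.26% lower. The 14 effectors between 1 and 10 RPKM had a median of 0.14, with 4 at least 1.5-fold higher and 1 lower, where 17.2% of all such genes were higher and 15.6% lower. Reads per library were estimated with the offset read as 1 read and the longest transcript of GENCODE M21 as the length. Among these 14 they were lowest for Isg15, at about 156 in mutants and 59.4 in controls. The highest were about 1667 in mutants, for Dtx3l, and about 1201 in controls, for Trim25. Ifit3 had about 228 in mutants and 79.7 in controls. Trim21, the 1 effector with a mean under 1 RPKM, had about 77.0 in mutants and 25.5 in controls. Precision is limited by the number of cells and animals, which these read numbers do not show.

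**Figure D2:**
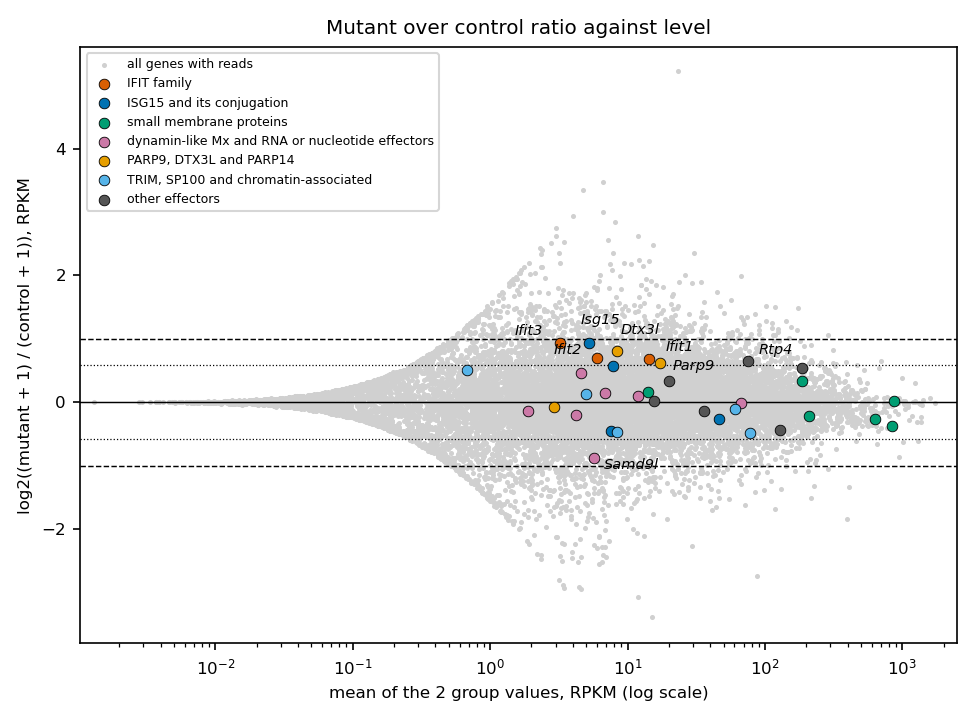
Log2 ratio of mutants over controls (pseudocount of 1 RPKM) against the mean of the group values (RPKM, log scale) for 14539 genes with reads (grey) and the 34 effectors (coloured by role). Dashed lines mark 2-fold and dotted lines 1.5-fold; named effectors are those past 1.5-fold, 7 above and 1 below, and no effector is past 2-fold.

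Where effector genes lie beside each other in the genome, they did not always share a direction. Of the 34, 17 lie within 150 kb of another member, in 7 loci (coordinates on GRCm38.p6). In 4 of the 7 all members had the same direction, and in 5 after centring on the median ratio, which turned Ifitm3. The Ifit genes on chromosome 19, Ifit2 (34550550 to 34576534), Ifit3 (34583119 to 34588982) and Ifit1 (34640889 to 34650009), were all higher. Mx1 and Mx2 on chromosome 16 (97447035 to 97462906 and 97536081 to 97560901) were both lower, and Sp110 and Sp100 on chromosome 1 (85570735 to 85610850 and 85649948 to 85709998) were both lower. Rsad2 and Cmpk2 on chromosome 12 (26442743 to 26456452 and 26469117 to 26479837), which point away from each other across 12.7 kb, were both higher, with log2 ratios of 0.46 and 0.10.

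On chromosome 16, Dtx3l (35926515 to 35939027, minus strand) and Parp9 (35938470 to 35972621, plus strand) overlap by 558 bases at their starts and were at log2 ratios of 0.81 and 0.61. Without strand, reads in the overlap cannot be assigned to either. Parp14 (35831892 to 35871518), 55.0 kb from Dtx3l and on the same strand, was at -0.08. In the Ifitm cluster on chromosome 7, Ifitm2 and Ifitm1, 7.74 kb apart, were at -0.27 and -0.38, and Ifitm3, 39.8 kb farther on, was at 0.01. Trim30b, a paralog of Trim30a, was at 6.12 RPKM in mutants and 10.8 RPKM in controls. The Ifitm paralog Ifitm7 was at 0.790 RPKM in mutants and 3.92 RPKM in controls. Of 19 paralogs of members with reads, 9 were higher and 10 lower, with a median log2 ratio of -0.05.

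**Figure D3:**
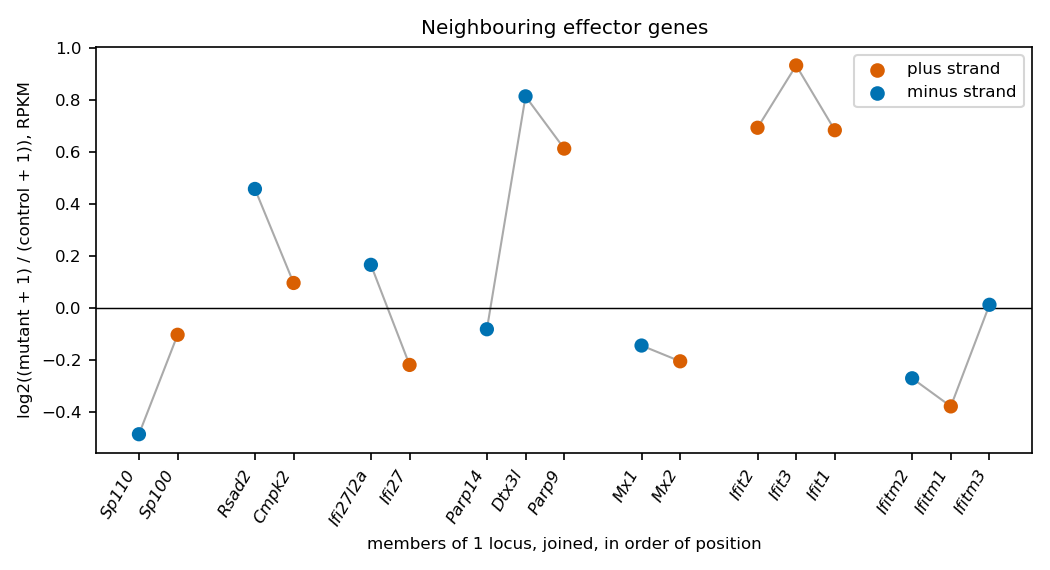
Log2 ratio of mutants over controls (pseudocount of 1 RPKM) for the 17 effectors that have another effector within 150 kb, in order of position within each of 7 loci, coloured by strand. The Ifit locus lies above 0 and the Mx and Sp loci below it, whereas Parp14 lies apart from Dtx3l and Parp9.

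RefSeq promoter windows were at hand for 25 of the 34. Usp18, Ifi27, Ifi27l2a, Mx1, Mx2, Parp9, Parp14, Rtp4 and Tor3a had none. The same ISRE letters (GAAA, any 2 bases, GAAA), searched on both strands, were in the windows of 10 of the 25 (40.0%), against 3.99% of 27025 genes with a window and 3.44% of 32851 windows. The 10 were Isg15, Ifit3, Ifit1, Trim21, Rsad2, Bst2, Ddx60, Ifitm3, Ifitm2 and Trim30a. Of these, 8 were higher and 2 lower in mutants, with a median log2 ratio of 0.39. Of the 15 with a window and no match, 8 were higher and 7 lower, with a median of 0.02, and of the 9 without a window 3 were higher and 6 lower, with a median of -0.14. The counts describe these genes and were not tested. An element outside the window, or with other letters, would not be counted. After centring on the median ratio, Ifitm3 and Xaf1 turned and 7 of the 10 and 7 of the 15 were higher; with both columns at the same sum, Isg20 turned and 9 of the 15 were higher. Over all genes with reads, the 433 with a match had a median of 0.01 and the 11010 without one a median of 0.01.

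Matches also stood in members that were lower. Trim30a and Ifitm2, printed above with their matches, were at -0.47 and -0.27, while Dtx3l and Ifit2, whose windows hold none, were at 0.81 and 0.69. A longer form of the motif, with C required after the last GAAA, was in the windows of 7 of the 25 (28.0%) and in 0.944% of all genes; Rsad2, Ifitm2 and Trim21 have only the shorter form. The letters TTCNNNGAA, the core of the STAT-binding GAS element, a search chosen after seeing the data, were in 5 of the 25 (20.0%), against 9.55% of all genes. These 5 were Bst2, Ifit2, Ifitm3, Isg20 and Ifi35, with a median log2 ratio of 0.01. In Bst2 the GAS letters overlap the first of its ISRE matches.

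**Figure D4:**
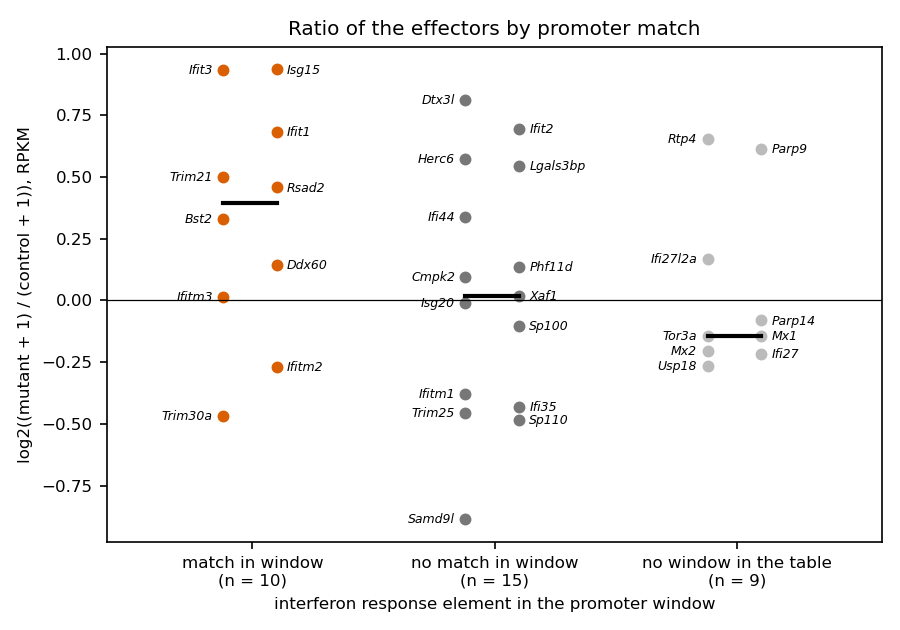
Log2 ratio of mutants over controls (pseudocount of 1 RPKM) for the 34 effectors, by whether the RefSeq promoter window holds the ISRE letters; bars are medians. The 10 with a match have a median of 0.39, the 15 without one 0.02 and the 9 with no window -0.14, and all 3 groups span 0.

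The other genes of the interferon system, read from the same columns and so from the same animals, differed in how far they moved. Interferon-inducible GTPases, which attack the vacuoles of pathogens, had 13 of 15 genes higher in mutants, a median log2 ratio of 0.66 and 5 at least 2-fold higher. Their farthest members were Iigp1, at 30.0 RPKM in mutants and 11.3 RPKM in controls, and Gbp3, at 40.4 RPKM in mutants and 17.9 RPKM in controls. The oligoadenylate synthetases with RNase L had 8 of 9 genes higher and a median of 0.42. Oasl1 was at 12.6 RPKM in mutants and 4.85 RPKM in controls, and Oas1c at 1.25 RPKM in mutants and 11.9 RPKM in controls. The effector median of 0.06 stood below both lists and the GTPases had 8 of 15 members at least 1.5-fold higher and 1 lower, against 7 of 34 effectors higher and 1 lower; the difference between lists was not tested.

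The genes that carry the signal to the effectors were higher in part. Of 10 genes for receptors, kinases and STATs, 8 were higher, with a median log2 ratio of 0.32. The receptor chain gene Ifngr2 was at 40.6 RPKM in mutants and 22.2 RPKM in controls. Stat2 was at 8.56 RPKM in mutants and 7.26 RPKM in controls and Irf9, its DNA-binding partner, at 28.8 RPKM in mutants and 20.0 RPKM in controls. In the Irf family 4 of 8 with reads were higher, with Irf7 at 73.3 RPKM in mutants and 27.0 RPKM in controls, and Irf8 at 2.27 RPKM in mutants and 0.917 RPKM in controls. The double-stranded RNA sensors and adaptors had 8 of 14 genes higher and a median of 0.17, and 10 of 14 higher with both columns at the same sum. The adaptor gene Mavs was at 30.5 RPKM in mutants and 11.6 RPKM in controls, and the kinase gene Ikbke at 6.32 RPKM in mutants and 13.1 RPKM in controls. Of 7 interferon genes, Ifna1, Ifna2, Ifna4, Ifng, Ifnl2 and Ifnl3 stood at the offset in both groups. Ifnb1 was counted as having reads, for which reads in 1 group suffice. It was at 0.424 RPKM in mutants and 0.0538 RPKM in controls. The control value was near the offset, which was 0.0414 RPKM in controls for a gene of 1 kb and is higher for a shorter gene. Low levels of RNA in sorted HSCs say nothing of interferon made by other cells of the marrow.

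**Figure D5:**
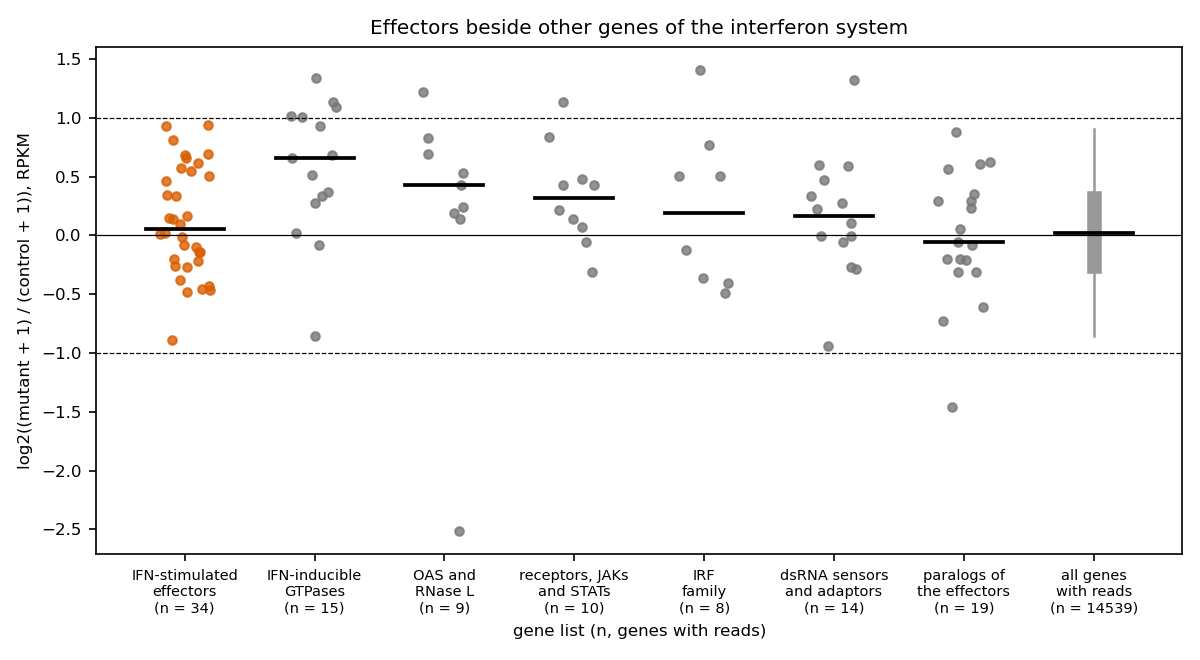
Log2 ratio of mutants over controls (pseudocount of 1 RPKM) for each effector and for other genes of the interferon system with reads (points), with list medians (black bars); for all genes the thick bar spans the middle 50% and the thin line the middle 90%. The effectors have a median of 0.06, the interferon-inducible GTPases 0.66 and all genes 0.02.

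The sorted population carried its defining markers. All 10 HSC markers had reads, with 5 higher and 5 lower in mutants and a median log2 ratio of -0.08. Their sum was 699 RPKM in mutants and 904 RPKM in controls, and most of that difference came from 1 marker that is not reported here. Kit, the gene of the stem cell factor receptor, was at 39.9 RPKM in mutants and 67.4 RPKM in controls. Of 14 macrophage and monocyte markers, Adgre1, Csf1r, Ccr2 and Cx3cr1 stood at the offset in both groups. Of the 10 with reads, 8 were higher in mutants, and Lyz2 and C1qb were lower. Among the 8, Ly6c2 was barely higher, at 0.0518 RPKM in mutants and 0.0517 RPKM in controls. The list summed to 304 RPKM in mutants and 411 RPKM in controls. Most of that sum was Lyz2, at 289 RPKM in mutants and 406 RPKM in controls. Hmox1 was at 10.4 RPKM in mutants and 2.03 RPKM in controls. Cd14 was at 0.790 RPKM in mutants and 0.0277 RPKM in controls, the latter near the offset. Control values were similarly low for Cd5l (0.513 RPKM in mutants and 0.0203 RPKM in controls), Vcam1 (0.393 and 0.0372 RPKM) and Fcgr1 (0.277 and 0.0159 RPKM). The C1q genes were divided. C1qa was at 1.38 RPKM in mutants and 0.212 RPKM in controls, and C1qc at 0.831 RPKM in mutants and 0.677 RPKM in controls. C1qb was lower, at 0.904 RPKM in mutants and 1.87 RPKM in controls. Of 7 markers of plasmacytoid dendritic cells, which are strong interferon producers, Siglech, Ccr9, Klk1 and Cox6a2 stood at the offset in both groups. Of the 8 T and natural killer cell markers 5 stood at the offset, among them Cd3e and Cd3g, and the list summed to 64.3 RPKM in mutants and 127 RPKM in controls, nearly all of it Nkg7, at 62.3 RPKM in mutants and 124 RPKM in controls. Of 7 neutrophil markers 4 had reads, with a sum of 5.86 RPKM in mutants and 14.6 RPKM in controls. Of 7 B and plasma cell markers, Cd79a, Ms4a1 and Pax5 stood at the offset, and the list summed to 139 RPKM in mutants and 137 RPKM in controls, nearly all of it Cd79b, at 133 RPKM in mutants and 132 RPKM in controls. Megakaryocyte and platelet markers summed to 276 RPKM in mutants and 226 RPKM in controls, with 5 of 7 genes higher. Selp was at 69.17 RPKM in mutants and 20.05 RPKM in controls, and Clec1b at 0.297 RPKM in mutants and 6.35 RPKM in controls. Erythroid markers summed to 92.5 RPKM in mutants and 69.7 RPKM in controls. Endothelial and stromal markers summed to 77.1 RPKM in mutants and 38.3 RPKM in controls, with 5 of 6 genes with reads higher. The largest share was Pecam1, at 50.14 RPKM in mutants and 21.98 RPKM in controls. Tek followed, at 22.5 RPKM in mutants and 14.5 RPKM in controls. Cxcl12 was lower and Col1a1 stood at the offset. Of the 7 genes found for markers that the gate selects against, Cd3e and Cd8a stood at the offset. The list summed to 37.2 RPKM in mutants and 44.4 RPKM in controls. Most of it was the pan-leukocyte gene Ptprc, at 31.4 RPKM in mutants and 37.9 RPKM in controls. Of the 5 with reads 3 were lower and 2 higher, among the latter Itgam, at 1.65 RPKM in mutants and 0.727 RPKM in controls. The part of these markers in the effector values was not tested, and in bulk samples fewer expressing cells and less RNA per cell cannot be told apart.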

How the data were processed

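RNA of 7 libraries (4 mutant, 3 control) was prepared with Smart-seq2 and sequenced as paired-end 100 bp reads, per the labels' protocols. The deposited values are RPKM, which the authors reduced to a group value for each gene (2 columns), per the file headers; the genome build mm10 and the tools Picard and edgeR are named in the submitters' processing notes, with no roles. No source used here gives the aligner, the annotation or the averaging. A test across libraries was planned for values per library and could not be run on group values. Genes were placed at the offset when their mutant/control ratio was 0.841, the commonest value (relative tolerance 1e-06), which gave 8499 genes. Ratios used a pseudocount of 1 RPKM, with thresholds of 2-fold and 1.5-fold as rules of size. Identifiers were matched to RefSeq (22959 of 23038). In 40.5% of the 7641 genes at the offset with a GENCODE symbol, the longest GENCODE transcript was within 2% of the length that the offset implies, so read numbers are approximate. Motifs were searched with Python 3.11.15 in RefSeq windows; in 25 of 31 windows of members the last 45 bases stood in a transcript of the gene in the same orientation. Calculations used pandas 2.3.3, NumPy 2.4.6 and Matplotlib 3.10.9, and the finding of the offset was tested on simulated data. All 34 members were named, and of each other interferon list the 2 genes farthest apart; marker lists, for which the same rule was planned, are given by counts and sums with their defining genes; further genes (Stat2, Irf9, Ifit3b, Trim30b) were chosen after their values were seen, and 2 genes that the rule names are not reported here. The members and lists were chosen with earlier results of these data known. Planned protein sequences of the Ifitm genes are not used here.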

Additional observations from a re-analysis of the deposited data

How the results depend on the processing

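With a pseudocount of 0.1 RPKM or with none, 3 effectors were at least 2-fold higher (Ifit3, Isg15 and Trim21) and 1 was 2-fold lower (Samd9l), in place of 0 and 0; 10.4% of all genes were then higher and 9.26% lower with 0.1 RPKM, and 13.6% and 11.5% with none. At 1.5-fold, with the pseudocount of 1 RPKM, the counts were 7 higher and 1 lower. The median log2 ratio of the effectors, 0.058, was 0.035 after centring on the median ratio of expressed genes, 0.019 over members that reach 1 RPKM in either group, and 0.12 as a mean. It stayed within 0.06 and 0.07 with both smaller pseudocounts, with columns scaled to equal sums and over the 32 members matched by symbol. Under the rescalings Ifitm3, Xaf1 and Isg20 changed sign, each within 0.02 of 0. The stricter motif gave 7 effectors in place of 10. Leaving out each replicate and fits with a test were not run because the deposited columns are group values. No paired analysis was possible because replicate numbers are absent from the group values. The group values give no spread between animals, which limits every difference described.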
